A study of Rattus norvegicus with 4 samples.

Results

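The peaks described here are 688 m6A peaks of rat hippocampal cultures whose midpoint lay inside their gene, outside its first and last stretch, and that were the only peak listed for that gene in untreated cells. They were chosen from the Ctrl peak list by 3 criteria. A peak had to overlap a peak of the BPA list by at least 1 bp, its gene had to have exactly 1 peak in the Ctrl list, and its midpoint had to lie in deciles 2 to 9 of the gene's locus, that is, outside the first and the last of 10 equal stretches counted from the start of the gene on its strand. The 688 peaks are 8.40% of the 8192 peaks of the Ctrl list (Wilson 95% interval 7.82 to 9.02) and belong to as many genes, 17.0% of the 4050 genes with a Ctrl peak. Both lists chose the peaks, so position, overlap, enrichment and score are given below as descriptions, and no test is made on them.

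The study compared cultures treated with bisphenol A (BPA, an oestrogen-mimicking component of plastics) with untreated cultures, labelled Ctrl. All were primary neurons from rat hippocampus kept in Ara-C, which stops dividing cells, from day 7 in vitro. There were 4 groups of 1 library each: BPA_IP, from exposed cells after pull-down with an m6A antibody, BPA_Input, from exposed cells without pull-down, and Ctrl_IP and Ctrl_Input, the same from untreated cells. Exposure was to 1 mM BPA for 48 h from day 12 in vitro, and its end is given as day 14 for BPA_IP and day 13 for BPA_Input. Whether an input and its IP share a culture is not stated. With no replicate in any group, every difference below is between 2 libraries, and no p-value is given.

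N6-methyladenosine (m6A) is the most abundant internal modification of mRNA. A nuclear complex built on METTL3 and METTL14 writes it, demethylases such as FTO can remove it, and YTH proteins read it and steer the decay, translation or transport of the message. In mRNA it is found mainly near stop codons and in long internal exons, and in neurons it has been linked to the transport and local translation of synaptic messages. In this assay RNA is fragmented and pulled down, and a peak is a stretch where pulled-down reads exceed those of the input.

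The deposited input counts summed to 9774929 in the BPA library and 9837064 in the Ctrl library over 22714 genes. The cell type label was checked with marker lists. Of 14 neuron markers found in the tables, all were above 1 FPKM (fragments per kilobase of transcript, scaled to library depth) in both inputs, and their FPKM summed to 1857 in BPA and 1737 in Ctrl. The 12 astrocyte markers summed to 7523 in BPA and 8115 in Ctrl, and Gfap, the astrocyte filament protein, had 2138 and 2222 FPKM. The 11 microglia markers summed to 138 in BPA and 142 in Ctrl, and the 11 oligodendrocyte lineage markers to 227 and 218. The 12 vascular and fibroblast markers summed to 148 in BPA and 140 in Ctrl, of which the collagens Col1a1 (46.9 and 44.3) and Col3a1 (54.2 and 49.9) made up most, while Cldn5, which marks endothelium, was listed at 0 in both inputs. Astrocyte marker RNA was thus abundant beside neuronal RNA, and a peak cannot be assigned to a cell type. In bulk RNA, fewer cells of a type and less RNA per cell cannot be told apart.

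Where the peaks lay was read from the genomic locus, introns included, so a decile is a stretch of the gene and not of the mRNA. Whether a peak falls in an exon, an intron or a UTR is not given in the tables used here. Of the 2240 genes with 1 Ctrl peak, 1502 had that peak overlapped in the BPA list (67.1%, Wilson 95% interval 65.1 to 69.0), against 75.7% of the 5952 peaks in genes with several (74.5 to 76.7). A locus was found for 1412 of the 1502. Decile 1 alone held 533 of them and decile 10 held 191. The 8 deciles in between held the 688, and numbers were lowest next to the gene start and higher towards its end: 67, 67, 71, 77, 115, 90, 98 and 103 peaks from decile 2 to decile 9.

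Deciles 6 to 9 thus held 406 of the 688 peaks (59.01%, 55.3 to 62.6). For comparison, 3072 shared peaks lay in the same interior of 1404 genes with several Ctrl peaks, and 56.9% of those were in deciles 6 to 9 (55.1 to 58.6). The last 2 interior deciles held 29.2% of the 688 peaks (25.9 to 32.7) and 30.4% of the 3072 (28.8 to 32.0). The median peak lay 13527 bp after the start and 10400 bp before the end of its locus.

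**Figure D1:**
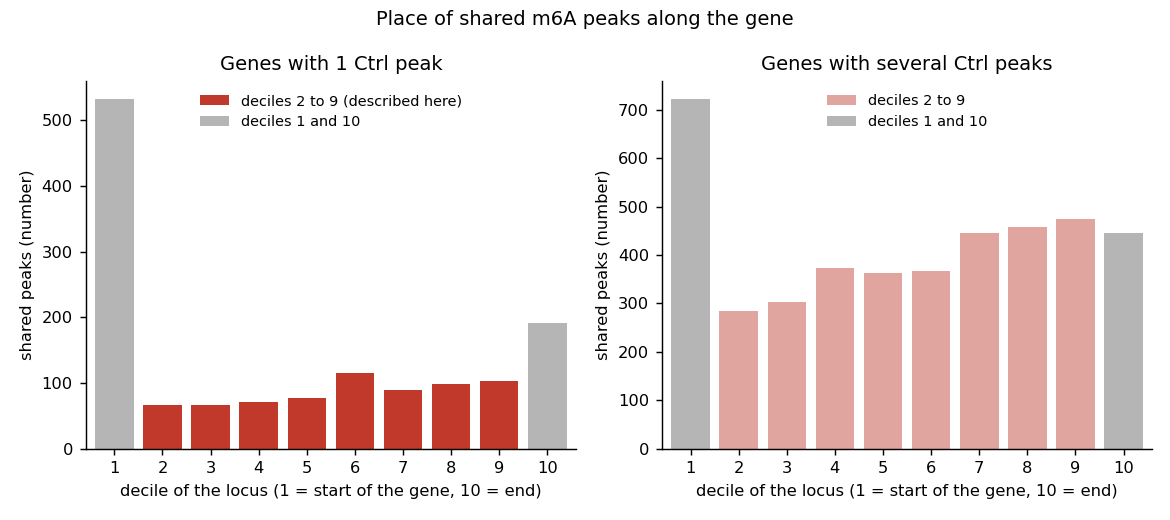
Number of shared peaks (y axis) in each decile of the gene locus (x axis, 1 at the gene start, 10 at its end), for genes with 1 Ctrl peak (left) and genes with several (right, on its own scale). Coloured bars are deciles 2 to 9, with 67 to 115 of the single-peak genes' peaks each on the left, and grey bars are deciles 1 and 10, with 533 and 191.

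The tall bar at decile 6 contains all peaks whose midpoint is the exact middle of the locus. There were 40 such peaks, 5.81% of the 688 (4.30 to 7.82), each spanning its whole locus from first to last base. Among the 3072 interior peaks of genes with several peaks only 4 did so (0.130%, 0.0506 to 0.334). The loci were short, with a median of 447 bp, and 26 of the 40 genes had no proper symbol. Of the 40, 14 were described as ribosomal proteins and 35 had a length divisible by 3. Their genes had few reads: 24 of 40 had a mean input count under 10, and 6 were at 0 in both inputs. Without these and other peaks that covered at least 50% of the locus or lay in a locus listed for several genes, 516 peaks remained, and deciles 2 to 9 held 55, 54, 51, 58, 60, 70, 79 and 89.

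For 100 of the 688 (14.5%, 12.1 to 17.4) the same locus was listed for several genes, against 10.4% of the 3072 (9.39 to 11.5), so their decile refers to the joint locus. One such locus of 272025 bp on chromosome X carries Adcy6, which makes cyclic AMP in the cell, Ccdc65 and the chaperone Fkbp11, together with other genes, 13 in all. The files list these genes on X while their annotation column gives chromosome 7. In all, 18 of 635 genes with an annotated chromosome were listed on another one (2.83%, 1.80 to 4.44), Hspa8 and Rps28 among them, against 1.98% of all genes (1.80 to 2.19). The bounds of the interior also divided near neighbours. Nr2c2 at 10.05% and Tor1a at 10.06% of the locus were just inside the first bound, and Rngtt at 9.99% and Pus7 at 9.89% just outside. At the other end Srfbp1 at 89.94% and Rest at 89.84% were inside, and Rasa2 at 90.02% and Hdhd2 at 90.04% were outside.

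Peak length ranged widely. The median was 211.5 bp (interquartile range 138 to 456), compared with 148 bp (109 to 198) for the interior peaks of genes with several. Of the 688, 63 (9.16%) were at least 1000 bp long, against 1.76% of the 3072. Length was not particular to the interior: the shared peaks of single-peak genes had a median of 204 bp in decile 1, where 2.44% were that long, and 308 bp in decile 10, where 9.95% were. The longest was that of Map1b, a neuronal protein that binds microtubules in growing axons (chromosome 2, 48844861 to 48851341, minus strand, 6481 bp). Next were Hivep3, a zinc finger transcription factor (chromosome 5, 142828139 to 142833632, plus strand, 5494 bp), and Nes, the intermediate filament nestin of neural progenitors (chromosome 2, 206750889 to 206755986, plus strand, 5098 bp). The shortest were in Ybx1, an mRNA-binding cold shock protein (34 bp), the adaptor Slc9a3r1 (41 bp) and elastin, Eln (42 bp).

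Among the 63 peaks of at least 1000 bp were those of the transcription factors Bhlhe22 (3112 bp, its whole locus), Foxc1 (2192 bp), Maf (1945 bp), Neurod1 (1738 bp), Emx2 (1508 bp), Rest (1402 bp) and Sox12 (1020 bp). These were picked out after their values were seen. The 38 of the 688 genes annotated with sequence-specific transcription factor activity had a median peak length of 270 bp, the shortest being 111 bp. Bhlhe22, Emx2 and Sox12 are not among those 38. The 12 genes annotated with RNA polymerase II transcription factor activity, Bhlhe22, Foxc1 and Maf among them, had a median of 488 bp. Emx2 and Neurod1 act in the development of cortex and hippocampus, and Rest represses neuronal genes. The start and end were identical in both lists for 612 of the 688 (89.0%), but for 40 of the 63 peaks of at least 1000 bp (63.5%) and 250 of the 251 from 100 to under 200 bp (99.6%). Of the 3072 interior peaks of genes with several, 98.6% had identical edges.

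**Figure D2:**
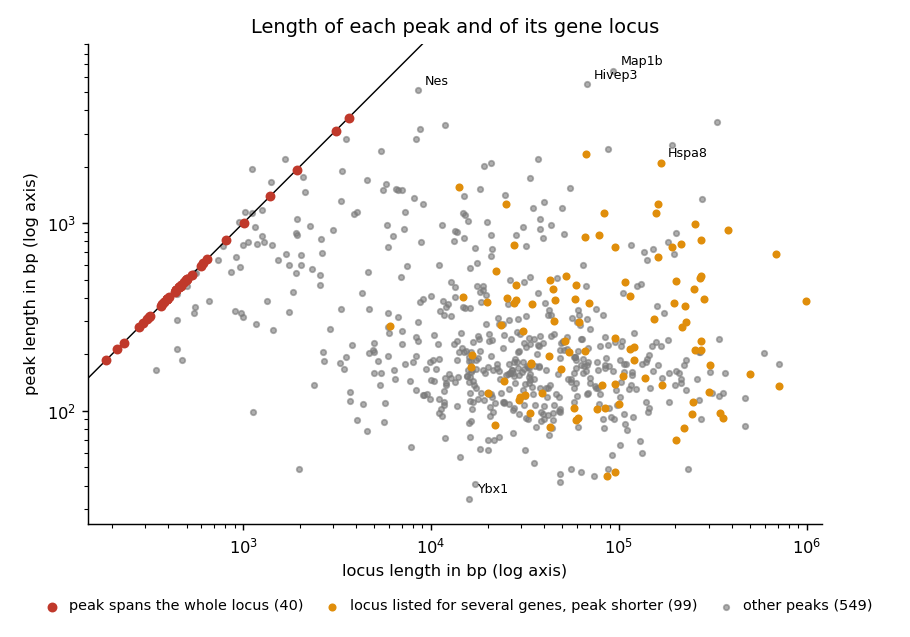
Peak length in bp (y axis) against locus length in bp (x axis), both on log axes, for the 688 peaks. Red points on the line of equal length are the 40 peaks that span the whole locus, orange points lie in a locus listed for several genes, and the median locus of the 688 is 27217.5 bp.

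The strength of a peak is given by 2 values of the authors, the fold enrichment of IP over input and a score, which is 10 times the negative log10 p. The lists hold no reads per peak, so a fold enrichment has no error here, and a score stops near 3100, reached by 24 of the 688 peaks in the BPA list and 22 in the Ctrl list. The fold enrichment of the 688 had a median of 6.55 in the BPA list (interquartile range 5.04 to 9.18) and 6.43 in the Ctrl list (4.79 to 8.88). The 3072 interior peaks of genes with several had 7.08 in BPA and 6.65 in Ctrl. Median scores were 47.1 in BPA and 48.4 in Ctrl, against 74.5 and 72.8 for the 3072. A score under 13, a p of about 0.05 by the header, was found for 156 peaks in BPA and 174 in Ctrl, and 439 of the 688 were at 13 or above in both.

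Peaks without a counterpart had lower values. The 394 interior Ctrl peaks of single-peak genes with no overlap in the BPA list had a median fold enrichment of 4.16 and a median score of 7.92, and 68.3% of them scored under 13. Of the 688, 25.3% did so in the same list. The 383 interior BPA peaks of genes with 1 BPA peak and no overlap in Ctrl were alike, with medians of 4.70 and 8.22.

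By the lower of the 2 fold enrichments, the strongest peak in a named and expressed gene (at least 1 FPKM in both inputs) was that of Hist2h2ab, a core histone of the H2A family (chromosome 2, 217845513 to 217845905, plus strand). It had 58.5 in the BPA list and 48.0 in the Ctrl list. Its peak is 1 of the 40 that span their whole locus, and its 8.18 and 4.04 input counts are too few to place its level. Wdr38, a WD repeat protein (chromosome 3, 28516362 to 28516643, plus strand), had 49.2 in BPA and 38.3 in Ctrl, and its locus is shared with Rpl35. Lxn, latexin, an inhibitor of carboxypeptidases (chromosome 2, 183983537 to 183983837, minus strand), had 33.2 in BPA and 26.8 in Ctrl, in a locus shared with Gfm1. Each of these peaks was higher in the BPA list.

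Among the others of the 12 strongest, Ptms, parathymosin, a small acidic nuclear protein (chromosome 4, 224456959 to 224457327, minus strand), had 23.6 in BPA and 25.1 in Ctrl. Sncb, beta-synuclein, a presynaptic relative of alpha-synuclein (chromosome 17, 12510521 to 12510708, plus strand), had 21.6 in BPA and 21.4 in Ctrl at inputs of 113 and 112 FPKM. Prpf38b, a splicing factor, had 25.0 in BPA and 22.1 in Ctrl. Myo10, the motor of filopodia (chromosome 2, 97756623 to 97757507, plus strand), had 22.03 in BPA and 20.7 in Ctrl. Tmbim6, which guards against cell death at the endoplasmic reticulum, had 21.0 in BPA and 24.1 in Ctrl. Rpl26-ps2, a ribosomal protein pseudogene, had 41.6 in BPA and 34.9 in Ctrl, Ccdc96 had 20.3 and 23.5, and Znhit1 had 19.9 and 19.5. All of these lay within 1.5-fold between the lists.

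The lists were close for most of the 688. The fold enrichment was higher in BPA for 397 peaks and lower for 288, with a median log2 ratio of 0.05 for BPA over Ctrl, against 0.08 over all 6005 shared peaks. It lay within 1.25-fold for 439 peaks (63.8%), against 63.1% of all shared peaks. It was at least 2-fold apart for 23 of the 688 (3.34%), against 1.8% of all shared peaks: 17 were higher in BPA (all shared peaks 1.28%) and 6 lower (0.516%). Of the 3072 interior peaks of genes with several, 1.66% were that far apart. Because the enrichment is part of what a shared peak was called on, nothing is read from these shares.

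**Figure D3:**
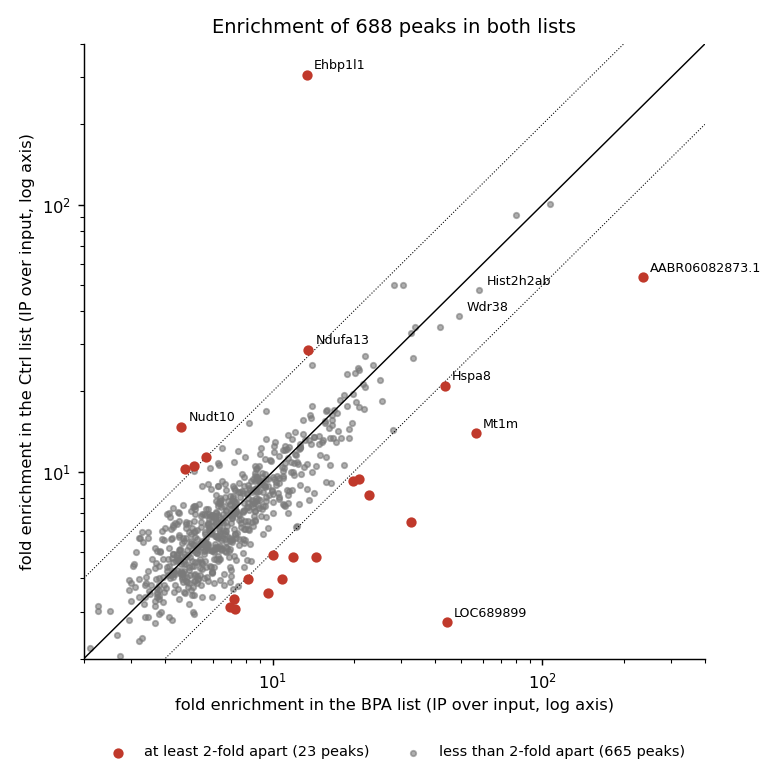
Fold enrichment in the BPA list (x axis) against the Ctrl list (y axis) for the 688 peaks, both on log axes, with the line of equality solid and 2-fold lines dotted. Red points are the 23 peaks at least 2-fold apart: Ehbp1l1 stands furthest above the line with 13.4 in BPA and 307 in Ctrl, and LOC689899 furthest below it with 44.2 in BPA and 2.74 in Ctrl.

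Of the 23, 10 lay in genes that had a mean input count under 10, and 6 peaks spanned their whole locus. By expression, peaks at least 2-fold apart were 7 of 56 below a mean of 1 FPKM (12.5%), 9 of 226 from 1 to under 10 FPKM (3.98%), 6 of 316 from 10 to under 50 FPKM (1.899%) and 1 of 90 at 50 FPKM or more (1.11%). Identical edges went the other way and became more frequent with expression, at 60.7%, 81.0%, 96.8% and 98.9% of the peaks. The part of read depth in these ratios was not tested. Of the 439 with scores of at least 13 in both lists, 16 were 2-fold apart, against 1.71% of all shared peaks with such scores. With scores of at least 100 in both lists, 6 of 177 were 2-fold apart, 4 of them higher in BPA, and all shared peaks of that kind gave 1.72%.

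Among named genes expressed in both inputs and with a score of at least 13 in both lists, Ehbp1l1, an EH domain binding protein of vesicle traffic, was furthest apart in the low direction, with 13.4 in BPA and 307 in Ctrl (scores 159 and 3100). Its input had 173 counts in BPA and 198 in Ctrl, a ratio of 0.873 (exact 95% interval 0.708 to 1.08). Ndufa13, a subunit of respiratory complex I, followed with 13.5 in BPA and 28.7 in Ctrl, on 5.11 and 6.06 counts and over a whole locus of 438 bp. The other 6 of the 8 lowest were under 2-fold apart. Arfgap2, which acts on Arf GTPases of the Golgi, had 5.86 in BPA and 10.4 in Ctrl, and Mcm2, of the replicative helicase, had 6.26 and 10.8. Ckap2, a mitotic spindle protein, had 4.29 in BPA and 7.32 in Ctrl, and Grsf1, an RNA-binding protein of mitochondria, had 4.08 and 6.94. Ppfibp2, a liprin, had 4.15 in BPA and 7.04 in Ctrl, and Trap1, the mitochondrial Hsp90, had 3.45 and 5.68.

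At the high end by the same rule, Mt1m, a metallothionein, had 56.8 in BPA and 14.0 in Ctrl on 2.04 and 2.02 input counts. Rp9, a splicing-related protein, had 11.9 in BPA and 4.79 in Ctrl on 10.2 and 13.1 counts, and Tceal6 had 19.8 and 9.28 on 17.4 and 18.2 counts. Those 3 rest on few reads. Hspa8, the constitutive Hsp70 chaperone (listed on chromosome 5, 103064144 to 103066245, minus strand), had 43.5 in BPA and 21.0 in Ctrl with scores of 3100 in both lists. Its input was 355 counts in BPA and 383 in Ctrl, a ratio of 0.927 (0.800 to 1.07). Its peak is 2102 bp long, and 4 genes are listed at its locus.

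Mllt6, a chromatin reader of the AF17 family (chromosome 10, 85399493 to 85399699, plus strand), had 10 in BPA and 4.88 in Ctrl, with an input ratio of 0.834 (0.710 to 0.978). Srfbp1 had 12.3 in BPA and 6.27 in Ctrl, Cd3eap, a subunit of RNA polymerase I, had 12.2 and 6.22, and Prr13 had 27.9 and 14.4. The input of Prr13 was lower in BPA, at 101 counts against 133 in Ctrl (ratio 0.760, 0.580 to 0.991). Outside the score limit, and picked out after the values were seen, Pias4, a SUMO ligase that acts on STAT proteins, had 9.60 in BPA and 3.51 in Ctrl with scores of 174 and 3.33. Cul4b, the scaffold of a ubiquitin ligase, had 7.28 in BPA and 3.08 in Ctrl with scores of 50.8 and 4.63. In both genes the Ctrl peak scored under 13.

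What the genes do was read from lists of known function. Of the 864 entries in these 22 lists, 52 carried one of the 688 peaks. Over all 22714 genes 3.03% did, and of the 4050 genes with a Ctrl peak 17.0% did. The share of the lists as a whole lay between these values. The lists were chosen with earlier results of these data known, so the counts by list are descriptions. Of the 52, Cul4b was at least 2-fold apart in enrichment, where 1.8% of all shared peaks were, and Ppfia4 passed 2-fold in the input, where 2.02% of all genes did, so these counts are near those over all features.

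**Figure D4:**
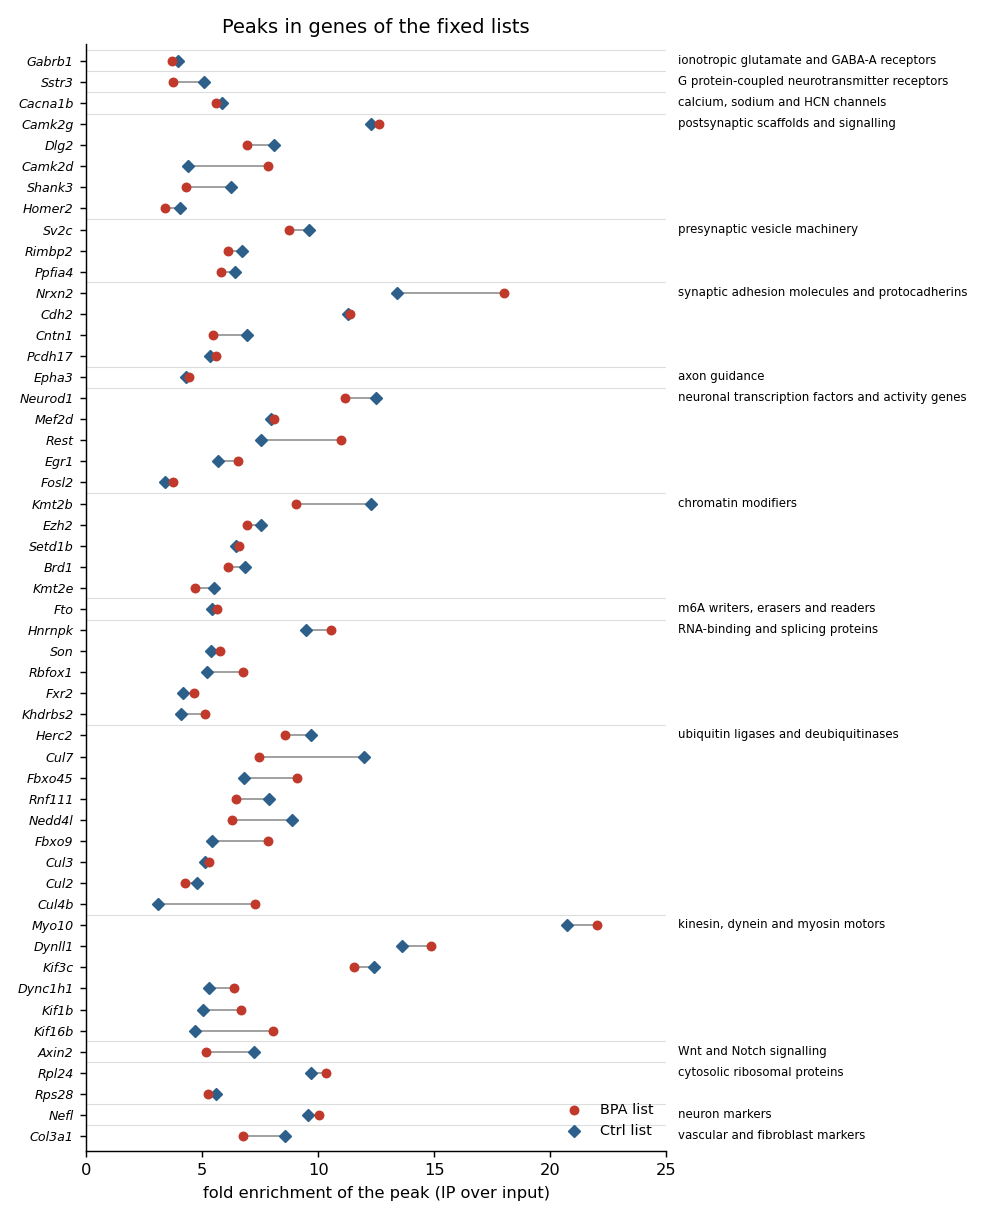
Fold enrichment (x axis) in the BPA list (red circles) and the Ctrl list (blue diamonds) of the peaks in genes of the lists, 1 gene per line, grouped by list. The grey lines join the values of a gene, and the widest relative gap is that of Cul4b, with 7.28 in BPA and 3.08 in Ctrl.

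On the postsynaptic side 5 of the 26 listed genes in the tables carried such a peak. Camk2g and Camk2d, the gamma and delta subunits of the calcium/calmodulin-dependent kinase II, each had a peak of 49 bp, at 88.8% and 75.8% of the locus. Camk2g (chromosome 15, 3718519 to 3718567, plus strand) had 12.6 in BPA and 12.3 in Ctrl. Camk2d (chromosome 2, 250428660 to 250428708, plus strand) had 7.82 in BPA and 4.40 in Ctrl, with scores of 143 and 4.80. It also had further peaks in the BPA list, with fold enrichments of 8.78, 6.33 and 5.45 and scores of 50.1, 17.0 and 28.4. Dlg2, the scaffold PSD-93, had 6.95 in BPA and 8.11 in Ctrl, Shank3, a master scaffold of excitatory synapses, had 4.28 and 6.23, and Homer2, which links receptors to that scaffold, had 3.40 and 4.04. The kinases were higher in BPA and the scaffolds lower, all within 2-fold. Their inputs had log2 ratios of BPA over Ctrl between -0.08 and 0.18.

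Presynaptic genes carried 3 of these peaks. Sv2c, a vesicle glycoprotein, had 8.74 in BPA and 9.59 in Ctrl. Rimbp2, which tethers calcium channels to release sites, had 6.12 in BPA and 6.71 in Ctrl, and Ppfia4, liprin alpha-4 of the active zone, had 5.79 and 6.43. All 3 were lower in BPA by less than 1.25-fold. Among adhesion molecules Nrxn2, a presynaptic neurexin (chromosome 1, 228884888 to 228884966, plus strand), had 18.0 in BPA and 13.4 in Ctrl. Cdh2, N-cadherin, had 11.4 in BPA and 11.3 in Ctrl, contactin Cntn1 had 5.47 and 6.93, and Pcdh17, a protocadherin, had 5.60 and 5.32.

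Over all 22714 genes listed, 3.03% carried one of the 688 peaks, and in the lists of receptors and channels the shares were near that. Of 27 ionotropic glutamate and GABA-A receptor genes Gabrb1, the GABA-A beta-1 subunit, carried such a peak (3.71 in BPA and 3.96 in Ctrl). Of 39 G protein-coupled neurotransmitter receptor genes Sstr3, a somatostatin receptor, did (3.74 in BPA and 5.06 in Ctrl). Of 30 calcium, sodium and HCN channel genes Cacna1b, the pore of the N-type calcium channel, did (5.60 in BPA and 5.85 in Ctrl), and of 44 potassium channel genes none did. In these lists 5, 6, 17 and 7 genes had any Ctrl peak. No cell type marker of astrocytes, microglia or the oligodendrocyte lineage carried one. Nefl, the light neurofilament, did (10.02 in BPA and 9.58 in Ctrl), as did Col3a1, a fibroblast collagen (6.74 in BPA and 8.58 in Ctrl).

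Motor proteins carried 6: Myo10, given above, the dynein light chain Dynll1 (14.9 in BPA and 13.6 in Ctrl), the kinesins Kif3c (11.5 and 12.4), Kif1b (6.67 and 5.05) and Kif16b (8.04 and 4.67), and the dynein heavy chain Dync1h1 (6.38 and 5.30). Kif1b, which moves synaptic vesicle precursors, had a peak of 2593 bp with scores of 102 in BPA and 3.05 in Ctrl. Epha3, an ephrin receptor, was the 1 gene of the 47 in the axon guidance list, with 4.42 in BPA and 4.31 in Ctrl. Axin2, a feedback inhibitor of Wnt signalling, was the 1 of 37 Wnt and Notch genes, with 5.17 in BPA and 7.25 in Ctrl.

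Gene regulators formed the next group. Of 62 neuronal transcription factors and activity genes, 5 carried such a peak, and 4 of these were higher in BPA. Rest had 10.99 in BPA and 7.52 in Ctrl, the immediate early gene Egr1 had 6.52 and 5.66, Mef2d, an activity-dependent factor, had 8.09 and 7.97, and Fosl2, of the AP-1 family, had 3.73 and 3.39. Neurod1, a factor of neuronal differentiation, was lower in BPA, with 11.2 against 12.5 in Ctrl. Of 69 chromatin modifiers 5 did, and 4 were lower in BPA. The histone H3 lysine 4 methyltransferase Kmt2b had 9.03 in BPA and 12.3 in Ctrl, the polycomb methyltransferase Ezh2 had 6.94 and 7.52, Brd1 had 6.12 and 6.84, and Kmt2e had 4.68 and 5.49. Setd1b on chromosome 12 had 6.58 in BPA and 6.45 in Ctrl. Each of these differences was under 2-fold. Of all shared peaks, 59.7% were higher in BPA. By the deposited functional annotation, such peaks in genes of chromatin binding were 16 higher and 9 lower in BPA. Those in genes of sequence-specific transcription factor activity were 23 higher and 14 lower. No direction is read from the 5 peaks of either list.

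Of the m6A machinery itself, 21 genes were in the tables, 7 had a Ctrl peak and 1, the demethylase Fto, was among the 688. Its 120 bp peak (chromosome 19, 28022586 to 28022705, minus strand) lay at 46.7% of the locus and had 5.63 in BPA and 5.42 in Ctrl, with scores of 20.8 and 8.78. The input had 1498 counts in BPA and 1581 in Ctrl, a ratio of 0.947 (0.882 to 1.02).

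Of 55 RNA-binding and splicing protein genes in the list, 30 had a Ctrl peak and 5 carried such a peak, all 5 higher in BPA. Hnrnpk, a shuttling protein of splicing and translation (chromosome 17, 8872381 to 8872478, plus strand), had 10.5 in BPA and 9.46 in Ctrl. Son, a scaffold of nuclear speckles, had 5.76 in BPA and 5.38 in Ctrl, and Rbfox1, a neuronal splicing regulator, had 6.77 and 5.21. Fxr2, a relative of FMRP, had 4.66 in BPA and 4.18 in Ctrl, and Khdrbs2, of the Sam68 family, had 5.10 and 4.10. Over all shared peaks, 59.7% were higher in BPA. By the deposited functional annotation, such peaks in genes of poly(A) RNA binding were 41 higher and 40 lower in BPA. Those in genes of RNA binding were 14 higher and 12 lower, and those of the spliceosome pathway 6 higher and 6 lower. No direction is read from the 5 peaks of the list.

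Ubiquitin ligases and deubiquitinases carried 9 such peaks in 92 genes, 41 of which had a Ctrl peak. Of the 9 peaks, 4 were higher and 5 lower in BPA. The group held 4 cullins, scaffolds of modular ligases, whose peaks all lay in deciles 6 to 9. Cul3 had 5.30 in BPA and 5.12 in Ctrl, Cul2 had 4.25 and 4.78, and Cul7 had 7.44 and 12.0, besides Cul4b, given above. Herc2, a giant HECT ligase, had 8.58 in BPA and 9.68 in Ctrl, and Nedd4l, which downregulates ion channels, had 6.27 and 8.89. Fbxo45, a synaptic F-box protein, had 9.09 in BPA and 6.82 in Ctrl, Fbxo9 had 7.85 and 5.41, and Rnf111, which acts in TGF-beta signalling, had 6.46 and 7.88. No direction was common to the group.

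Ribosomal proteins were counted in 2 ways. Of 58 cytosolic ribosomal protein genes in the list, Rpl24 (10.4 in BPA and 9.67 in Ctrl, at 189 and 193 FPKM) and Rps28 (5.24 and 5.61, at 3.03 and 10.1 FPKM) carried one of the 688 peaks. Rps28 had a mean input count under 10, so no input difference is read from its FPKM. By the deposited functional annotation, however, 32 of the 688 genes were structural constituents of the ribosome. There were 76 such genes with a Ctrl peak, so 42.1% of them were among the 688, against 17.0% of all genes with a Ctrl peak. Of the 76, 63 had exactly 1 Ctrl peak. Among the 32 were Rpl23a, Rpl37a and Rps10, which are not counted in the list. Most of the 32 bore an identifier in place of a symbol, 14 of the 32 peaks spanned the whole locus, and 13 had a mean input count of at least 10. Copies of ribosomal protein genes are nearly identical in sequence, so reads may be split among them and these values are uncertain.

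Signalling genes were read from the deposited pathway annotation and named for it, after their values were seen. Of 76 genes of the MAPK signalling pathway with a Ctrl peak, 16 carried one of the 688 (21.1%), against 17.0% of all genes with a Ctrl peak. Of the 16, 11 were higher and 5 lower in BPA, where 59.7% of all shared peaks were higher. Hras, a GTPase upstream of the pathway, had 8.05 in BPA and 6.30 in Ctrl, with an input ratio of 0.978 (0.844 to 1.13). Long-term potentiation, the lasting strengthening of synapses, had 8 of 28 (28.6%), with 5 higher and 3 lower in BPA. Nothing is read from the shares of these 2 pathways. Beside Hras and the Camk2 genes, Ppp1r1a, inhibitor 1 of protein phosphatase 1, had 17.8 in BPA and 18.5 in Ctrl, and Ppp3r1, the regulatory subunit of calcineurin, had 11.71 and 10.02. Prkcb, protein kinase C beta, had 3.83 in BPA and 5.04 in Ctrl, and Plcb3, phospholipase C beta-3, had 5.65 and 6.91.

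Both subunits of the tuberous sclerosis complex, the brake on mTOR, carried a peak. Tsc1 had 4.29 in BPA and 4.04 in Ctrl, and Tsc2 had 5.31 and 3.97, with a score under 13 in 1 list for each. All 3 heterochromatin protein 1 genes did too: Cbx1 had 11.4 in BPA and 13.8 in Ctrl, Cbx3 had 8.55 and 6.86, and Cbx5 had 9.34 and 7.43. Of the Mediator complex, which bridges factors and RNA polymerase II, Med12 had 15.3 in BPA and 13.0 in Ctrl, Med13l had 9.45 and 7.80, and Med16 had 11.4 and 7.68. These families were picked out by name, and the locus of Med16 is listed for 17 genes.

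The input levels were not used to choose the peaks beyond what a peak call needs. The 688 genes had a median of 12.5 FPKM in BPA and 12.7 FPKM in Ctrl, against 18.2 FPKM in both for the 3072 peaks of genes with several. Of the 688, 617 had a mean of at least 10 counts. Their median log2 ratio of BPA over Ctrl, log2((BPA + 1)/(Ctrl + 1)), was -0.013, against 0.0019 for all 13006 genes at that depth. It was above 0 for 284 and below for 333, and within 0.25 for 82.2%, against 77.4% of all genes. Genes past 2-fold were 10 of 617 (1.62%, Wilson 95% interval 0.883 to 2.96), against 2.02% of all genes: 2 were higher (all genes 1.04%) and 8 lower (0.984%). Over all depths the share of the peak-bearing genes was near that of all genes.

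**Figure D5:**
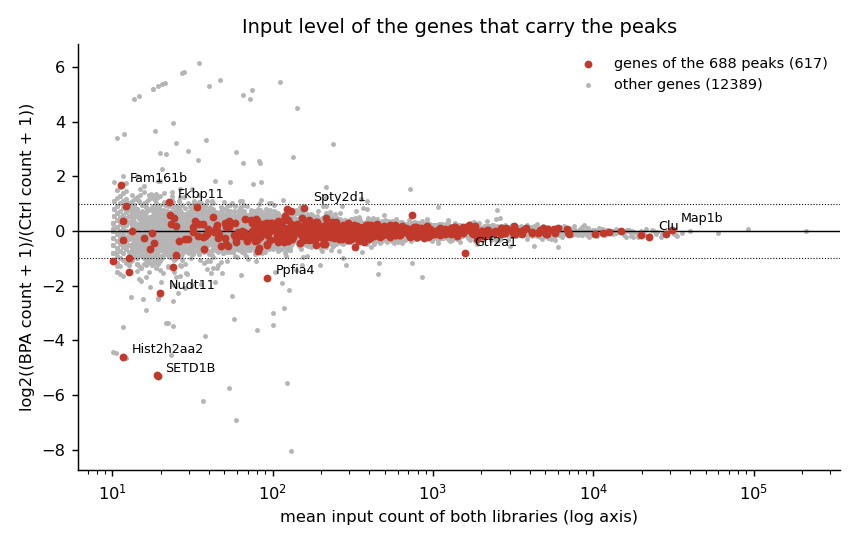
Log2 ratio of the input counts, BPA over Ctrl with 1 added to each (y axis), against their mean (x axis, log scale), for the genes of the 688 peaks (red) and every other gene averaging 10 counts or more (grey). Dotted lines mark 2-fold: 10 red points lie outside them, and Ppfia4, at 42.4 counts in BPA and 141 in Ctrl, is the 1 with a mean of at least 50.

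Ppfia4 had the firmest difference, with 42.4 counts in BPA and 141 in Ctrl, a ratio of 0.300 (exact 95% interval 0.206 to 0.423), and its peak stayed at 5.79 in BPA and 6.43 in Ctrl. The other 9 were among 47 with a mean of 10 to under 50 counts (19.1%), a range in which 10.2% of all genes passed 2-fold. SETD1B, listed on chromosome 1 apart from Setd1b, had 0 counts in BPA and 37.7 in Ctrl, at least 12.6-fold lower when 3 counts are taken as the floor. AABR06025846.1 had 0 in BPA and 38.4 in Ctrl, at least 12.8-fold lower, and the histone gene Hist2h2aa2 had 0 and 23.2, at least 7.74-fold lower. Nudt11, a phosphohydrolase of inositol phosphates, had 6.13 in BPA and 33.3 in Ctrl (ratio 0.184, 0.0623 to 0.439). SETD1B, Hist2h2aa2 and Nudt11 have related copies in the tables, so reads may be split among them. The locus of AABR06025846.1 is listed for 4 genes.

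Cenpk, a centromere protein, had 6.13 counts in BPA and 19.2 in Ctrl (ratio 0.320, 0.103 to 0.822). Znrd1as1 had 13.3 in BPA and 34.3 in Ctrl, and RGD1563570 had 6.13 and 14.1. The genes higher in BPA were Fam161b, a ciliary protein, with 17.7 counts in BPA and 4.87 in Ctrl (ratio 3.64, 1.29 to 12.4), and Fkbp11, with 30.7 and 14.1 (ratio 2.17, 1.14 to 4.50). Of the 23 peaks at least 2-fold apart in enrichment, 13 lay in genes with enough input counts, and 0 of those 13 genes passed 2-fold in the input. With 2.02% of all genes past 2-fold, nothing is read from that 0.

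With a mean of at least 50 counts, the next highest input ratios were those of Spty2d1, a histone chaperone (201 counts in BPA and 112 in Ctrl, ratio 1.80, 1.42 to 2.28), Khdrbs2 (158 and 88.8, ratio 1.78, 1.36 to 2.33) and the deubiquitinase Usp12 (162 and 96.8, ratio 1.67, 1.29 to 2.17). Szrd1 had 889 counts in BPA and 589 in Ctrl, and Hscb, which helps to build iron-sulfur clusters, had 141 and 96.9. The next lowest after Ppfia4 were Gtf2a1, a general transcription factor (1156 in BPA and 2026 in Ctrl, ratio 0.571, 0.530 to 0.614), and Cyba, a subunit of NADPH oxidase (61.3 and 101, ratio 0.608, 0.432 to 0.838). Pacsin3 had 64.4 counts in BPA and 98.9 in Ctrl, and the coactivator Ncoa6 had 260 and 390. The peak of Gtf2a1 had 16.6 in BPA and 15.7 in Ctrl.

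The most abundant of these genes were Map1b (31340 counts in BPA and 30137 in Ctrl), Sparcl1 (27358 and 29649), Clu (20555 and 23969), Sparc (18629 and 20689) and Dync1h1 (14768 and 14890). Map1b was at 1.04-fold (1.02 to 1.06). Sparcl1, Clu and Sparc, secreted glycoproteins that astrocytes make in quantity, were at 0.923-fold (0.908 to 0.938), 0.858-fold (0.842 to 0.874) and 0.900-fold (0.883 to 0.918). The astrocyte marker list had a median log2 ratio of -0.10 between the same inputs, and its part in these 3 values was not tested. Their peaks were close between the lists: Map1b had 13.9 in BPA and 12.7 in Ctrl, Sparcl1 had 12.0 and 10.8, Clu had 7.82 and 7.66, and Sparc had 8.50 and 7.77. At the other end Smg6, a nuclease of nonsense-mediated decay, and Rps19bp1 had 3.07 and 5.11 counts in BPA, against 4.04 and 5.05 in Ctrl, too few to place their level.

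Having 1 Ctrl peak did not mean having 1 BPA peak. Of the 688 genes, 548 had 1 BPA peak and 140 (20.3%, 17.5 to 23.5) had more: 115 had 2, 19 had 3 and 6 had 4. The 171 further BPA peaks were mostly weak, with a median fold enrichment of 5.01 and a median score of 11.03, and 94 scored under 13. Only 11 reached a score of 100. The strongest were in Brms1l, of a histone deacetylase complex (chromosome 6, 86207467 to 86207731, fold enrichment 13.9, score 1191), RGD1306954 (14.1, score 579) and Ppp1r9b, the dendritic spine protein spinophilin (chromosome 10, 82625636 to 82625740, fold enrichment 10.4, score 524). The shared peak of Ppp1r9b itself had 15.6 in BPA and 15.3 in Ctrl. Chosen the other way round, from genes with 1 BPA peak, 708 peaks qualified, and 161 of those genes (22.7%, 19.8 to 26.0) had further Ctrl peaks. Of the 708 genes, 545 were also among the 688, and the number of peaks in each list chose both sets, so the shares are given as a description.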

How the data were processed

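RNA of 4 libraries, BPA_IP, BPA_Input, Ctrl_IP and Ctrl_Input, was analysed from the deposited tables. Tools listed in the submitters' processing notes are HISAT2 2.0.4, STAR and cutadapt 1.9.3, without the step each served. The sources used here give no genome build, quantifier or peak caller version. Per the file headers, the deposited input tables give an FPKM and a count per gene. The deposited counts are estimated counts times 1 factor per library: after division by 1.02 (BPA) or 1.01 (Ctrl), 96.5% and 96.4% of values under 300 came within 0.01 of whole. Per the file headers, the deposited peak lists give a score, a fold enrichment (the ratio of IP to input) and an FDR in percent (100 throughout). Score and fold enrichment are the authors' values and only describe, rank or filter peaks. Starts were taken as counted from 0 and are printed as 1-based positions in the files' own coordinates. No genome of that build was used, so no peak sequence is shown.

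Peaks were matched by position and placed on the locus of the gene row with the same symbol, the row with more Ctrl counts where several contained the midpoint (Python 3.11.15, pandas 2.3.3, NumPy 2.4.6, SciPy 1.17.1). Input ratios used counts as deposited with a pseudocount of 1 and a mean of at least 10. With 1 library per group no test was run. Ratio intervals are exact (Clopper-Pearson) binomial, and Wilson 95% intervals are given for shares. The ratio intervals and the floor of 3 counts cover counting error only. The Wilson intervals treat peaks or genes as independent draws and cover no spread between cultures or libraries. edgeR 4.0.16 (TMM) and DESeq2 1.42.0 size factors, in R 4.3.3, served as alternative scales. The rule and its steps were tested on simulated data.

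The members and gene lists were chosen with earlier results of these data known. Genes were named by rule, among those with a symbol and at least 1 FPKM in both inputs. The rule took the 12 strongest by the lower fold enrichment and the 8 highest and 8 lowest ratios with both scores at least 13. It also took the 5 highest and lowest input ratios with a mean of at least 50 and the 3 strongest of each list. The 5 most and fewest counts, the 3 longest and shortest peaks and the 2 nearest each bound were named too. All genes past 2-fold in the input were named without the symbol and FPKM limits. Others are said to be picked after their values were seen or for their place in a list or pathway.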

Additional observations from a re-analysis of the deposited data

How the results depend on the processing

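Over 6 results, 40 alternatives were computed, some of them (a locus of 1 gene row, a peak covering under 50% of its locus, the annotated chromosome) chosen after seeing the data. In 33 of them a count stayed within 1.5 times its value, or a median or share within its 95% interval, and in 7 it did not. The median log2 ratio of fold enrichment changed sign, to -0.027, when centred on all shared peaks. Peaks at least 2-fold apart, 23 in all, became 6 with both scores at least 100 and 15 where the peak covers under 50% of its locus. Input genes past 2-fold, 10 in all, became 37 with no filter on low counts, 1 with a mean of at least 50 and 5 on the FPKM + 1 scale. The 688 peaks became 439 with both scores at least 13, and between 518 and 688 otherwise. The cause of these moves was not tested, apart from the fewer peaks or genes that a stricter limit leaves. The share in deciles 8 and 9 stayed between 29.2% and 31.9%, and the median input ratio between -0.015 and -0.0078 on the log2 scale. Input differences under 2-fold in genes with few counts were not detectable at this depth. Leaving out a replicate was not possible, since each group has 1 library. No paired analysis was possible because the groups have 1 library each and the labels give no replicate number.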
